A study of Oncorhynchus kisutch with 82 samples.

Results

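The probes described here are 150 features of a salmon array whose gill log ratios differed between the ocean years 2009 and 2008 in summer fish and, in the same direction, in fall fish. They were chosen by that year difference itself. Of 43236 probes on the array, 21096 had a value on at least 60% of the arrays in each of the 4 sets of fish used (summer and fall of either year), and 12582 of those had medians that differed with the same sign in summer and in fall. The probes were ranked by the smaller of the 2 absolute differences, and the top 150 were kept. Of these, 50 were higher and 100 were lower in 2009, where the 12582 comprised 7343 higher and 5239 lower probes. Because the year contrast at sea picked the members, it is given below without a test, and tests are given only for contrasts that the choice did not use. Contrasts of stage, origin, sex, stock and size at sea run on the same 42 arrays that chose the members.

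The gill is the organ in which salmon exchange respiratory gases, excrete ammonia and move ions between blood and water. Its ion-transporting cells take up salt in fresh water and secrete it in sea water. During smoltification, the change that readies a juvenile salmon for the sea, this tissue is remodelled before the fish leaves the river. Gill RNA is therefore often profiled in salmon to follow migration, osmotic challenge, growth and disease.

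The series compared the gills of young coho salmon (Oncorhynchus kisutch) across life stages, with 1 fish on each of 82 two-colour arrays. The amplified RNA of the fish carried Alexa 555 and a pool of gill RNA from all samples carried Alexa 647, on every array. The fish were river smolts in fresh water and postsmolts caught at sea in spring, summer, fall and winter, each labelled by year, by hatchery or wild origin and by place. The labels give no age, no treatment and no genotype. The year contrast at sea used 7 summer fish of 2008 (2 hatchery, 5 wild), 10 summer fish of 2009 (5 hatchery, 5 wild), 14 fall fish of 2008 (6 hatchery, 8 wild) and 11 fall fish of 2009 (6 hatchery, 5 wild). All were caught in areas labelled north_SoG, mid_SoG or south_SoG. The smolts of 2008 all came from the Chilliwack (3 hatchery and 5 wild fish). Those of 2009 were 8 hatchery fish from the Chehalis and 4 wild fish from a place labelled salmon, called Salmon River here. The 4 spring fish were wild, of 2009, from south_SoG, and the 2 winter fish were hatchery fish of 2009 from the area labelled WCVI with the stock label Puget_Sound. The stock label was Chilliwack_R on all smolts of 2008 and Fraser on all smolts of 2009, and the spring fish carried Fraser (2 fish), S_Main (1) and Chilliwack_R (1). The stock labels of the summer and fall fish were mostly Fraser, with Chilliwack_R on 5 of the 14 fall fish of 2008 and on 1 of the 11 of 2009. Median fork length was 16.6 cm in summer 2008 and 17.65 cm in summer 2009, and 25.45 cm in fall 2008 and 25.3 cm in fall 2009. It was 8.75 cm in the Salmon River smolts, 10.3 cm in the wild Chilliwack smolts, 11.6 cm in the Chehalis smolts and 12.6 cm in the hatchery Chilliwack smolts, of which fish 36 is recorded at 5.0 cm.

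These fish are those whose arrays had a standard deviation of log ratios of at most 1.3, the limit set in choosing the probes. The other 14 arrays, called wide arrays here, were 5 hatchery and 2 wild Chilliwack smolts, 5 summer fish of 2009, all from mid_SoG, and 1 fall fish of each year. An array had values for 12606 to 31972 probes. The authors deposited log ratios, taken here as log2, but the sources used here give neither the base nor the direction of the ratio. Higher and lower therefore refer to the deposited log ratio and not to the amount of RNA. No file gives the gene of a probe, so the probes go by their array positions (C for column, R for row), no list of pathway genes or cell type markers could be applied, and the tissue label could not be checked against markers. In a bulk tissue, fewer cells of a type and less RNA per cell cannot be told apart. Nothing in the labels says which fish shared a holding, a catch or an extraction, so p-values measure the spread between these fish.

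The median absolute difference between the years was 0.906 in summer and 1.15 in fall over the 150 members, against 0.203 and 0.334 over all 12582 probes with the same sign. Members at the edge of the list were not set apart from those outside it. The last probe inside, C118R029, had a smaller difference of 0.754228, and the first outside, C231R102, had 0.753582. Members were measured more completely than most probes. In the ocean arrays used, 4.95% of their values were empty, against 43.1% over all probes, which the demand for values in each set favours.

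The members fell into a few groups of alike profiles. Average linkage on 1 minus the absolute correlation over all arrays, cut at 0.5, gave 22 sets, of which 4 held 126 members. The largest set held 80 members, 76 of them lower in 2009, with a median absolute pairwise r of 0.703. A second held 25 members (15 higher, 10 lower), another 15 members, all higher, and a small set 6 members, all higher, with r between 0.69 and 0.98. A further 5 sets held 11 members and 13 members stood alone. The correlations are over 82 arrays that share a reference pool, and the sets were formed from the same values that are described below, smolts included, so a set carries no test of its own.

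**Figure D1:**
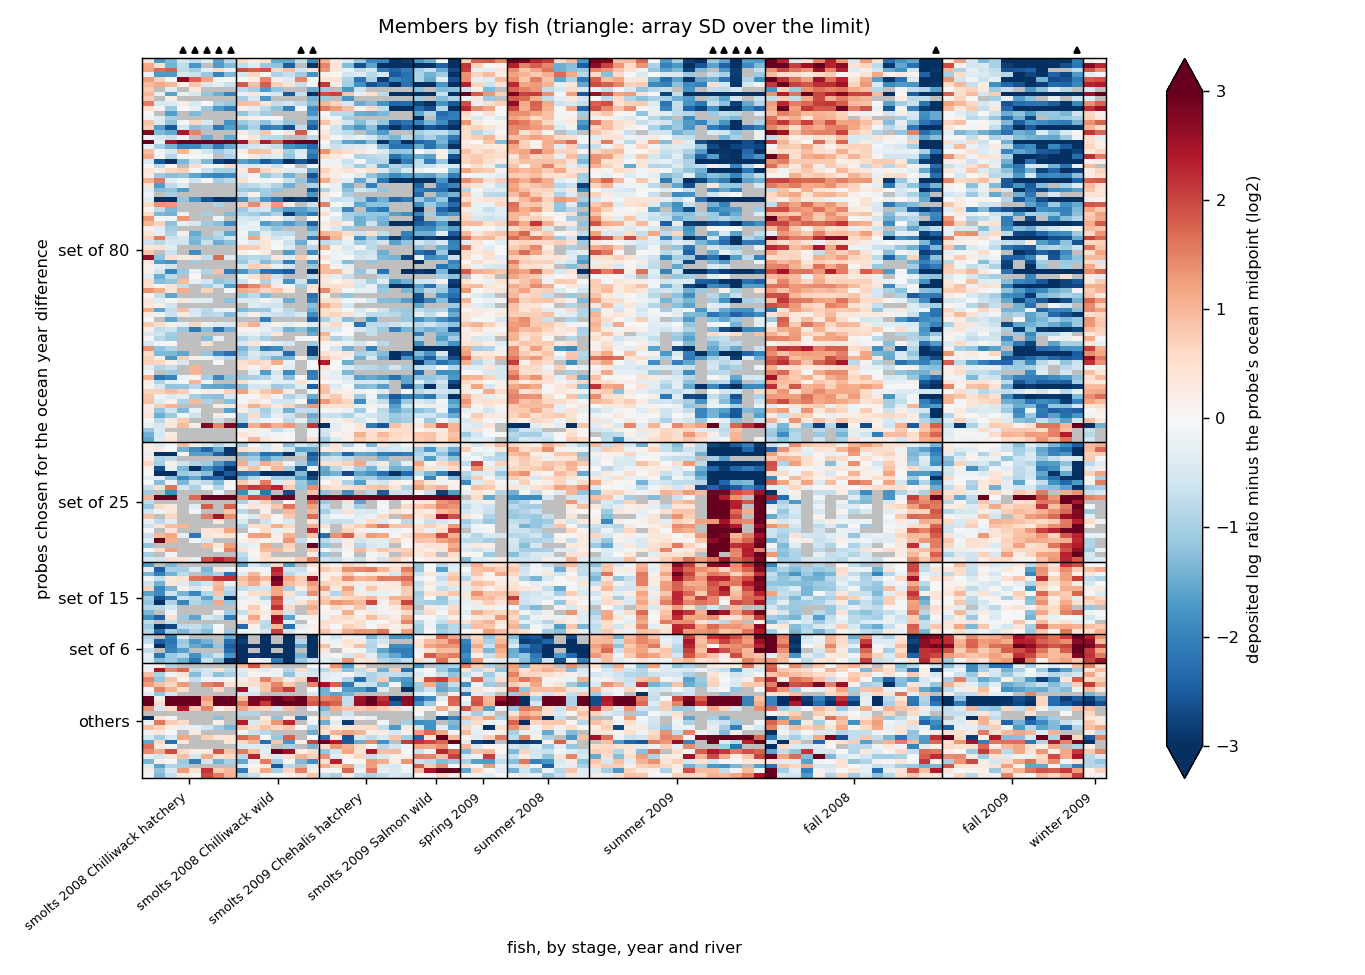
Colour shows the deposited log ratio of each of the 150 members (rows, by set) in each of the 82 fish (columns, by stage, year and river), minus the mean of the probe's 4 ocean medians, on a log2 scale that saturates at 3; grey marks an empty value and triangles mark the 14 wide arrays. The set of 6 is low in Chilliwack smolts of both origins and in summer 2008. The set of 80 is low in wide arrays of summer 2009, in many fall fish of 2009 and in Salmon River smolts. It is also low in other fish, among them fall fish 836 and 1012 of 2008, the latter on a wide array. Chehalis smolts 1618 and 1621 and wide Chilliwack smolt 100 are low too.

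The set of 6 carried the largest year differences in summer. Its members were C209R121, C114R015, C010R109, C131R170, C042R155 and C024R022, of which the first 4 ranked 4, 5, 6 and 8 among all members. The median difference over the 6 was 3.62 in summer and 1.39 in fall.

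C209R121 had log ratios of -3.09, -2.45, -2.44, -2.36 and -1.10 in the 5 summer fish of 2008 with a value. In the 10 summer fish of 2009 it ran from -1.21 through a median of 1.11 to 2.25, and in the 5 wide arrays of summer 2009 it was 1.54, 2.17, 2.36, 2.51 and 3.19. The 2 years overlapped by a single fish of each, and the wide arrays lay above every fish of 2008. In fall it ran from -3.06 through 0.32 to 3.15 in 2008 and from 0.89 through 1.81 to 2.76 in 2009. The fall fish of 2008 thus spanned the whole range, while the 11 fall fish of 2009 all stayed at the high end.

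C010R109 followed the same course with a wider range. In summer it ran from -5.25 through -4.05 to -1.01 in the 7 fish of 2008 and from -1.83 through 0.52 to 1.69 in the 10 fish of 2009. In fall it ran from -4.20 through -0.20 to 2.64 in 2008 and from 0.52 through 1.25 to 2.57 in 2009. Again the summer groups overlapped at their edges only, and in fall the low values belonged to 2008. C042R155 did not overlap in summer, with -4.14, -2.02 and -1.02 as lowest, median and highest in 2008 against -0.46, 1.17 and 2.02 in 2009. C024R022, the least alike of the 6, had the smallest differences, 1.41 in summer and 0.81 in fall.

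The set of 80 differed most in fall, with a median difference of 1.58 there against 0.90 in summer, in the direction that chose each member. Its best-ranked member C087R048, the first of all 150, ran from -2.61 through 1.25 to 2.66 in summer 2008 and from -4.35 through -0.42 to 2.05 in summer 2009. In fall it ran from -5.12 through -0.45 to 3.52 in 2008 and from -4.48 through -3.79 to 0.36 in 2009. The years overlapped over most of their range in both seasons, and the median difference came from more fish at the low end in 2009. C182R066, second in rank, likewise had fall medians of 1.00 in 2008 and -2.98 in 2009 with ranges of -4.37 to 3.00 and -4.35 to 1.60. C118R004 had fall medians of 0.96 and -2.96, and its lowest fish, -3.74 in 2008 and -4.00 in 2009, were alike.

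The set of 15 and the set of 25 had smaller differences. Over the set of 15 the median difference was 0.95 in summer and 0.86 in fall, and its best-ranked member C109R104 went from -0.27 in the fall of 2008 to 0.78 in that of 2009 (medians of 11 fish each, with ranges of -1.48 to 2.44 and -0.31 to 2.59). Over the set of 25 it was 0.85 in summer and 0.96 in fall. The limma fit over both seasons gave a median of 0.74 for this set, and 1.16 with the wide arrays included. Where the wide arrays lay for the set is given below. C236R065, its best-ranked member, ran from -3.06 through -0.72 to 0.32 in fall 2008 (12 fish) and from -0.21 through 0.62 to 1.64 in fall 2009 (10 fish). In the wide arrays of summer 2009 it reached 1.82 to 3.70, above every one of the narrower arrays of either year.

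C148R013 and C101R031, 2 members outside these sets, moved almost as 1 probe (r = 0.990 over all arrays) and had few values in the middle. C148R013 was at -6.28, -4.29, -4.16, -0.24, 0.06, 0.47 and 2.14 in the 7 summer fish of 2008, and ran from -5.94 through -1.37 to -0.17 in summer 2009. In fall it ran from -6.46 through -5.27 to 0.26 in 2008 and from -7.02 through -6.12 to -2.61 in 2009. The year difference of this pair is thus small beside the spread between fish of 1 year.

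**Figure D2:**
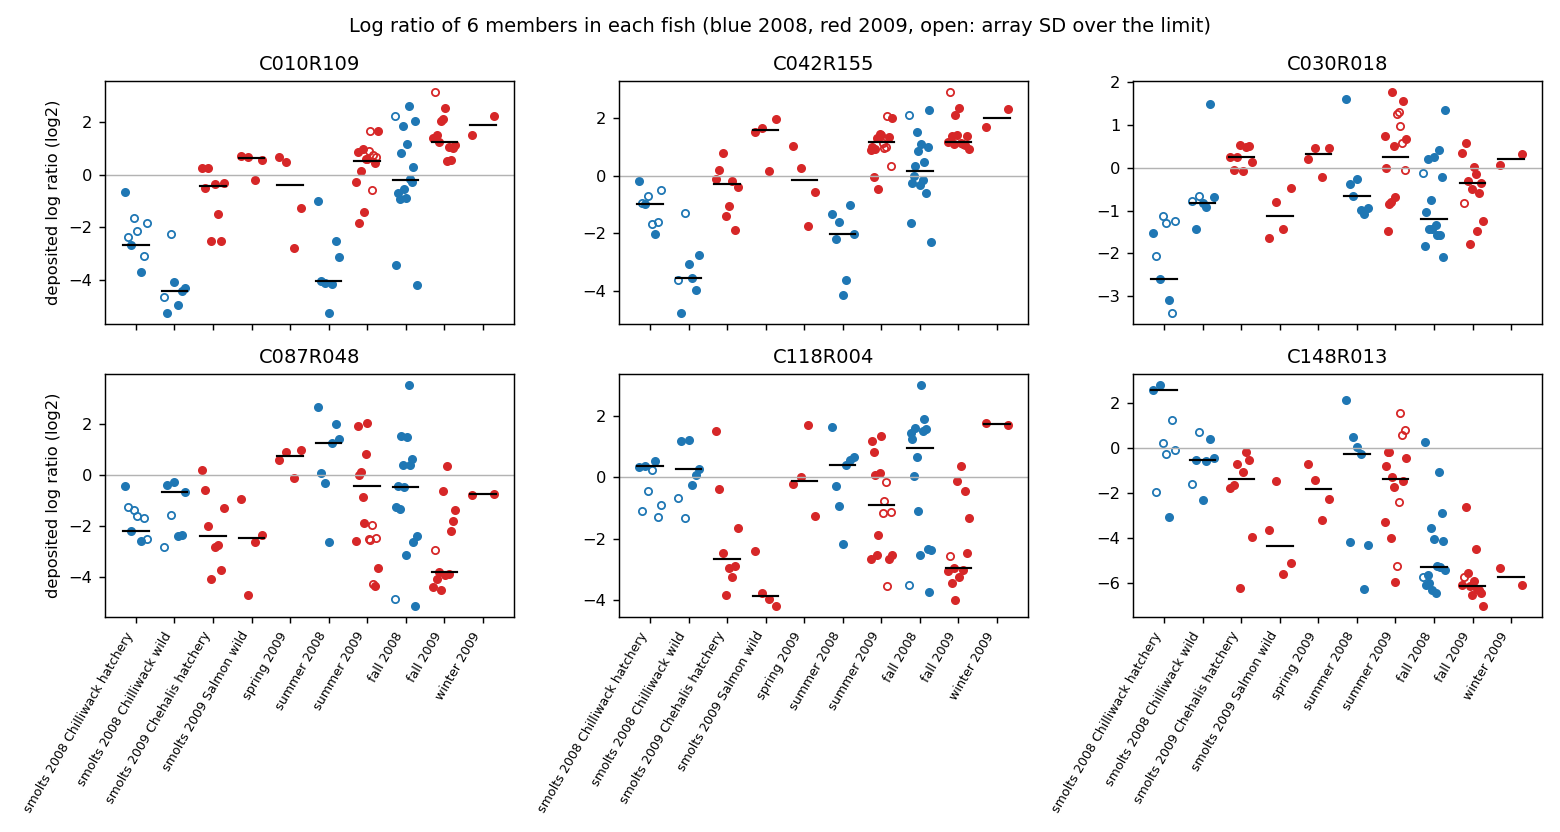
Deposited log ratios (log2) of 6 members in every fish with a value, by stage, year and river, with 2008 in blue, 2009 in red, wide arrays as open points and the median of the other arrays as a bar. C010R109 and C042R155 lie low in wild Chilliwack smolts and summer 2008, and below 0 in every hatchery Chilliwack smolt. C030R018 lies low in hatchery Chilliwack smolts. C148R013 has fish on both sides of 0 in summer 2008 and among Chilliwack smolts, but none above 0 in smolts, spring, fall or winter fish of 2009.

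Each fish was placed between the years by the median over members of its log ratio minus the mean of the probe's 4 ocean medians, turned so that the side of 2009 is positive. The summer fish of 2008 lay between -1.04 and 0.29 with a median of -0.67, and those of 2009 between -0.59 and 1.26 with a median of 0.24. The fall fish lay between -1.02 and 1.45 with a median of -0.59 in 2008 and between 0.01 and 1.68 with a median of 1.01 in 2009. The years overlapped in both seasons, and summer fish 2786 of 2009, from mid_SoG, lay lower than 3 of the 7 summer fish of 2008. These positions rest on the values that chose the members and describe them only.

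The wide arrays, which took no part in the choice, all lay on the side of 2009, whatever their year and stage. The 5 of summer 2009 lay between 1.40 and 1.80, and the wide fall array of 2008 lay at 1.87, above that of 2009 at 1.73. That fish of 2008 came from WCVI and was 32.8 cm long, whereas the fall fish used all came from the SoG areas. The wide Chilliwack smolts lay between 0.03 and 0.99. The narrower arrays of the Chilliwack overlapped them, at -0.42 to 0.34 in hatchery and -0.08 to 0.55 in wild smolts. For the set of 6 alone, the wide Chilliwack smolts lay on the side of 2008, at -3.86 to -1.07. For the set of 25 alone, the wide arrays of summer 2009 lay at 2.06 to 3.41, above every narrower summer array (at most 1.10). The wide fall arrays lay at 1.73 in 2008 and 2.78 in 2009, and the narrower ones at most at 1.10 and 1.84. The wide Chilliwack smolts lay at 0.81 to 1.63 for this set, and the narrower ones at -0.46 to 0.70. Among the fall fish of 2009 used, the 5 lowest over all members (0.01 to 0.33) had array standard deviations of 0.79 to 0.89. The 6 others (1.01 to 1.68) had 0.91 to 1.21. Among those of 2008, fish 797 and 796, furthest on the side of 2008 at -1.02 and -0.92, had 1.08 and 1.02. Fish 836, furthest on the side of 2009 at 1.45, had 1.08. With the array standard deviation as a further term, the median year difference over members was 0.87, against 0.93 without it. Both fits use the arrays that chose the members.

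**Figure D3:**
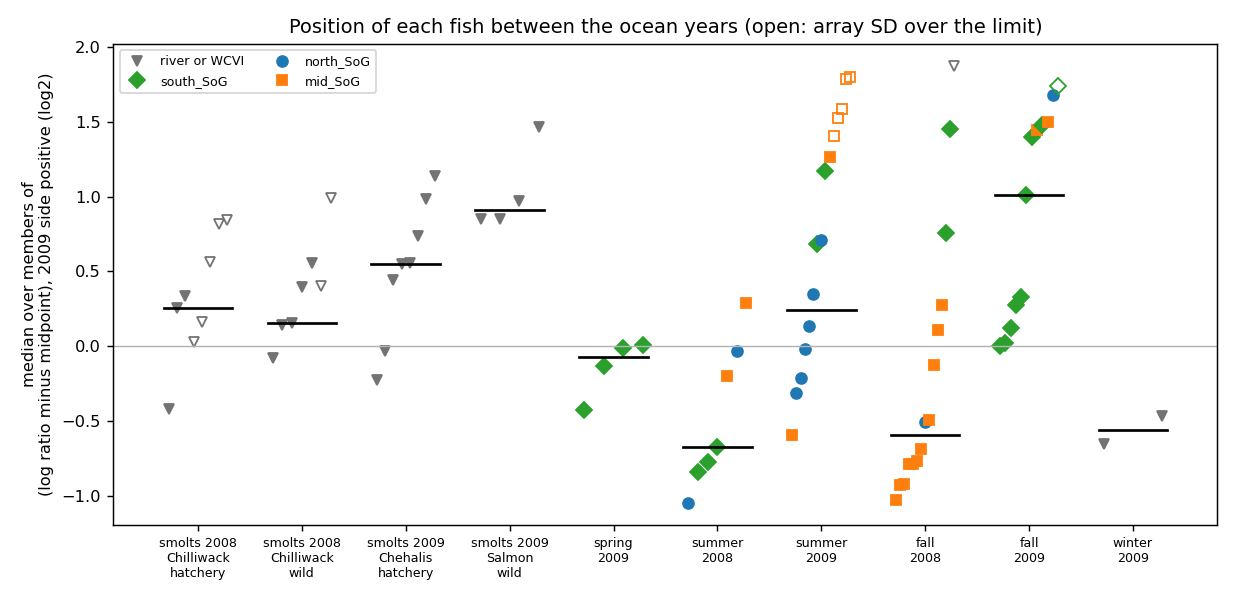
Position of each fish between the ocean years (median over members, log2, the side of 2009 positive), by stage, year and river, with the capture area as colour and shape, wide arrays open and the median of the other arrays as a bar. In fall 2008 the 2 fish of south_SoG lie at 0.75 and 1.45, above the 12 others, and the 5 wide arrays of summer 2009 lie at 1.40 to 1.80.

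Year and capture area were mixed in fall, where 11 of the 14 fish of 2008 came from mid_SoG and 8 of the 11 fish of 2009 from south_SoG. Sex was also mixed with year, with 8 females and 5 males in fall 2008 and 3 females and 8 males in fall 2009. Within mid_SoG the median year difference over members was 1.87 (11 fish against 2, 147 of 150 members in the direction of their choice) and within north_SoG 2.27 (1 fish against 1). Within south_SoG it was -0.50 (2 fish against 8), with 37 of 150 members in that direction. The 2 fall fish of 2008 from south_SoG, 922 and 836, lay at 0.75 and 1.45, within the range of the fall fish of 2009. With year as the only term the fit over the fall fish of south_SoG gave -0.41 over all members, but 1.71 over the set of 6. Fish 836 had a set median of 2.47 for the 6 probes and fish 922 one of -2.95, so the 2 fish of 2008 lay at opposite ends there.

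In summer the areas were spread more evenly. The median year difference over members was 0.55 in north_SoG (2 fish against 6), 0.21 in mid_SoG (2 against 2) and 1.71 in south_SoG (3 against 2), with 132 of 150, 76 of 131 and 146 of 149 members in the direction of their choice. Over summer and fall together, limma gave a median of 0.93 with stage and origin as terms. With slide as a fixed block it was 0.77, with capture area 0.90, with fork length 1.00 and with Fraser fish alone 1.11. Of 23 slides with ocean fish, 8 held both years, and the median was positive on 7 of them. Year was mixed with stage on 6 of the 8, and the 2 slides that held the same stage in both years gave 0.48 and 0.79. All these values, with or without further terms, come from the arrays that chose the members, which favours a positive median. They are a description. The fit with capture area gives a single year difference over areas that differed in fall, at 1.87 in mid_SoG and -0.50 in south_SoG.

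River smolts took no part in the choice, so they show the members in other fish. Smolts of 2009 were compared with those of 2008, with origin as a term, by limma over all 23319 probes. Of 144 members tested, 40 were called at an adjusted p below 0.05, 11 higher and 29 lower in 2009. All 40 moved in the direction of the ocean difference. Over all probes 15.2% were called, 7.08% higher and 8.17% lower, against 27.8% of the members. With the wide arrays included the order turned, with 46 of 137 members called (33.6%) against 38.1% of all probes. The sign was that of the ocean difference for 131 of 144 members (91.0%), against 7947 of 12326 other probes with the same sign in both seasons (64.5%). Year, river and stock label cannot be told apart among these smolts, whose rivers and stock labels differed between the years, and the pool on every array contains the fish compared.

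All 6 probes of the set of 6 were called higher in smolts of 2009, by 1.68 to 3.27. C114R015 was at -3.49 to -0.71 in 6 smolts of 2008 and at -0.80 to 1.63 in 10 smolts of 2009, a difference of 2.80 ± 0.39 (SE, adjusted p in limma 0.000447). The years overlapped by 1 hatchery smolt of 2008. C010R109 was 3.27 ± 0.56 (SE) higher (adjusted p in limma 0.00109). In the set of 80, 23 members were called lower and 2 higher, and in the set of 15 none was called. C001R039 was lower by the largest amount, -4.26 ± 0.57 (SE, adjusted p in limma 0.000221). It was at -0.36, 2.44 and 5.27 in the hatchery and at 0.82, 1.76, 2.30, 2.41 and 2.67 in the wild smolts of the Chilliwack, and below 0 in all 12 smolts of 2009. C003R122 was -2.65 ± 0.42 (SE) lower (adjusted p in limma 0.000644). On the 5 slides that held smolts of both years, the median difference over those of the 6 probes with values was positive on each, at 2.32 to 5.05. The slide at 2.32 had values for 4 of the 6 probes, all higher in 2009. That at 4.71 had values for 3, of which 2 were higher in 2009. The slide at 4.71 also rests on fish 1442, whose labels give 2 different slides, and without it the other 4 spanned the same range. Only the slides at 4.71 and 5.05 compared smolts of like origin, all of them wild. The other slides set hatchery smolts of 2009 against wild smolts of 2008, with 1 hatchery Chilliwack smolt added on the slide at 2.32. Year was thus mixed with origin on those slides.

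The 2 origins differed in the members called, though most members kept the sign of the ocean difference in both. Wild smolts were compared between the Salmon River in 2009 (4 fish) and the Chilliwack in 2008 (5 fish). Of 147 members, 65 were called, 11 higher and 54 lower in the Salmon River fish. Over all 23179 probes limma called 18.1%, 7.53% higher and 10.5% lower. Of the 65, 62 moved in the direction of the ocean difference, and the 3 that moved against it all belonged to the set of 15. Only 3 of the 15 members of that set were higher in the Salmon River smolts, and their median difference was -0.55, against the ocean direction. The sign was that of the ocean difference for 120 of 147 members (81.6%), against 66.3% of other probes with the same sign in both seasons. Leaving out Chilliwack smolt 94 reduced the count to 43 of 147 (29.3%), against 11.8% of all probes.

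C010R109 separated these wild fish most clearly. It was at -5.25, -4.95, -4.41, -4.30 and -4.09 in the 5 Chilliwack smolts and at -0.19, 0.58, 0.69 and 0.72 in the 4 Salmon River smolts. The groups lay about as far apart as the summer medians of 2008 and 2009, with a difference of 5.05 ± 0.29 (SE, adjusted p in limma 2.19e-06). The 2 wild Chilliwack smolts with wide arrays were at -4.64 and -2.27, also below every Salmon River smolt. C042R155 was at -4.76, -3.98, -3.56, -3.05 and -2.74 in the Chilliwack smolts and at 0.17, 1.53, 1.65 and 1.98 in the Salmon River smolts. Its difference was 4.95 ± 0.43 (SE, adjusted p in limma 6.84e-05). All 6 members of the set were called higher, by 2.56 to 5.05. The call of C024R022, with a difference of 2.56, was lost in 8 of 18 alternatives (adjusted p in limma up to 0.0788), among them leaving out smolt 94, 96, 97, 1435, 1439 or 1441.

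In the set of 80, 42 of 79 members tested were called lower in the Salmon River smolts and none higher. C118R004 was at -4.18, -3.96, -3.78 and -2.39 in these and at -0.26, 0.09, 0.25, 1.19 and 1.22 in the wild Chilliwack smolts, with no overlap and a difference of -4.08 ± 0.40 (SE, adjusted p in limma 0.000151). C001R039 was at -2.59, -2.48, -2.24 and -1.44 against the Chilliwack values given above, a difference of -4.18 ± 0.36 (SE, adjusted p in limma 6.84e-05). C087R048, the best-ranked member, did overlap, at -4.68, -2.60, -2.33 and -0.94 in the Salmon River smolts and at -2.40, -2.36, -0.65, -0.40 and -0.25 in the wild Chilliwack smolts.

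Hatchery smolts were compared between the Chehalis in 2009 (8 fish) and the Chilliwack in 2008 (3 fish). Of 135 members, 7 were called, all higher in the Chehalis fish and all in the set of 15, by 1.86 to 2.84. Over all 22257 probes limma called 0.288%, 0.162% higher and 0.126% lower. The sign was that of the ocean difference for 107 of 135 members (79.3%), against 56.2% of other probes with the same sign in both seasons. Without Chilliwack smolt 1 it was so for 75 of 122 members, against 5523 of 11272 other probes. Of the 10 members then called, 2 moved against the ocean direction. With the wide arrays included it was so for 74 of 118 members, against 4845 of 10339 other probes. All 15 members of that set were higher in the Chehalis smolts, with a median of 1.74. With slide position as a factor 2 of 135 members were called (1.48%), against 0.723% of all probes. With the 5 wide Chilliwack arrays included 23 of 118 were (19.5%), below the 32.3% called over all probes, and 3 of the 23 moved against the ocean direction.

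C030R018 was at -3.11, -2.60 and -1.53 in the hatchery Chilliwack smolts and between -0.08 and 0.55 in the 8 Chehalis smolts, with a median of 0.25. The groups did not overlap, and the difference was 2.67 ± 0.29 (SE, adjusted p in limma 0.00119). The 5 wide hatchery arrays of the Chilliwack, at -3.40, -2.07, -1.29, -1.26 and -1.13, also lay below every Chehalis smolt. C011R058 was at -2.90, -2.50 and -0.88 against 0.16 to 0.90, a difference of 2.63 ± 0.35 (SE, adjusted p in limma 0.00590). Its wide Chilliwack arrays reached 0.23 and so overlapped the Chehalis fish. None of the set of 6 was called here, with differences of 0.49 to 1.66 and adjusted p in limma of 0.107 to 0.767. Some were called in alternatives: C114R015 in 2 of 10, C010R109 in 1 of 11 and C024R022 in 1 of 11. Their lowest adjusted p in limma was 0.00229, 0.0316 and 0.0152.

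Whether the river difference itself differed between the origins was tested with an origin by year term, a comparison added after the data had been seen. Of 134 members, 10 were called, 5 higher and 5 lower for wild minus hatchery. Over all 21442 probes limma called 0.863%, 0.289% higher and 0.574% lower. The 5 higher ones were C209R121, C114R015, C010R109, C131R170 and C042R155 of the set of 6, and the 5 lower ones C244R016, C134R140, C030R018, C104R040 and C140R143 of the set of 15. C042R155 differed by 4.40 ± 0.73 (SE, adjusted p in limma 0.00848) and C104R040 by -4.00 ± 0.63 (SE, adjusted p in limma 0.00769), and both kept their calls in the 17 alternatives run. The calls of C010R109 and C114R015, with differences of 3.61 and 2.46, were lost when most single smolts were left out (adjusted p in limma up to 0.0887 and 0.0993). That of C131R170 was lost without smolt 94, 96, 101, 1435, 1439 or 1442, that of C209R121 without smolt 101 or 1439, that of C244R016 without smolt 6 and that of C134R140 without smolt 6 or 1435. C209R121 and C131R170 had values in only 2 of the hatchery Chilliwack smolts used. Neither probe could be tested without 1 of those 2 fish, so each had 14 alternatives. Leaving out Salmon River smolt 1435 or 1439 left 6 members called (4.55%), against 0.587% and 0.497% of all probes. C024R022, at 1.78, was not called (adjusted p in limma 0.363).

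**Figure D4:**
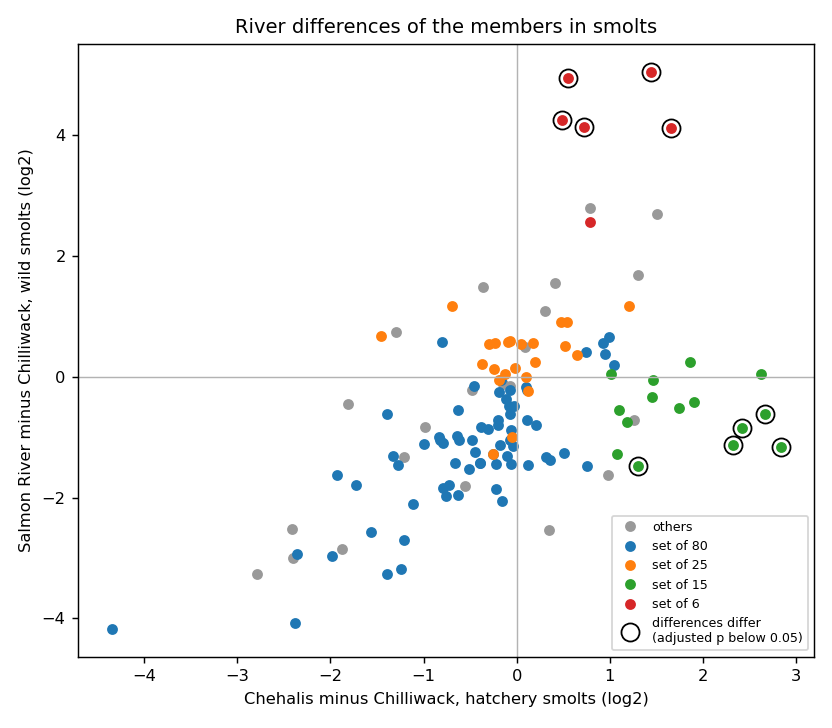
Each point is a member, placed by its difference between Chehalis and Chilliwack hatchery smolts (horizontal, log2) and between Salmon River and Chilliwack wild smolts (vertical, log2), coloured by set, with rings on the 10 members whose 2 differences differed at an adjusted p below 0.05. The set of 6 stands high at 2.56 to 5.05 in wild fish, with 0.49 to 1.66 in hatchery fish. The set of 15 lies to the right at 1.01 to 2.84 in hatchery fish, with -1.48 to 0.24 in wild fish.

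Spring fish were compared with the smolts of 2009, with origin as a term. The spring fish were all wild, and in 2009 the wild smolts were the 4 Salmon River fish, so each difference is that between the 4 spring fish and these 4, and the 8 Chehalis smolts added to the estimate of the spread only. Of 145 members, 80 were called, with the spring fish above the Salmon River smolts for 67 and below them for 13. Over all 23832 probes limma called 29.7%, 15.3% higher and 14.4% lower. Of the 80, 74 moved against the direction of the ocean difference, that is, towards the side of 2008. Most probes did so: the sign was that of the ocean difference for 22 of 145 members (15.2%) and for 2429 of 12384 other probes with the same sign in both seasons (19.6%). The set of 80 gave most of them, with 58 members higher and 2 lower in spring fish. Stage and river of origin cannot be told apart here. The spring fish carried mixed stock labels, and the 4 smolts all came from the Salmon River.

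C077R062 was at 0.34, 0.54, 0.75 and 0.83 in the 4 spring fish and at -2.93, -2.91, -2.58 and -2.42 in the Salmon River smolts. The groups did not overlap, and the difference was 3.32 ± 0.50 (SE, adjusted p in limma 0.000498). C061R141 was at 0.37, 0.64, 0.84 and 0.89 in spring fish and at -2.91, -2.13, -1.91 and -0.72 in the Salmon River smolts, a difference of 2.60 ± 0.38 (SE, adjusted p in limma 0.000501). The Chehalis smolts lay nearer to the spring fish, with medians of -1.43 for C077R062 and -0.13 for C061R141 and highest values of 0.23 and 0.37. Both members are lower in 2009 at sea. In the other direction, C231R155 was at -3.45 and -1.29 in the 2 spring fish with a value and at 1.49, 1.53, 1.71 and 2.76 in the Salmon River smolts, with no overlap and a difference of -4.24 ± 0.56 (SE, adjusted p in limma 0.000323). C047R107 was at -1.83, -1.64 and -1.62 in 3 spring fish and at 0.01, 0.02, 0.38 and 0.56 in the Salmon River smolts, a difference of -1.94 ± 0.30 (SE, adjusted p in limma 0.000666). Its Chehalis smolts, from -1.63 through -1.19 to -0.14, reached down to the spring values.

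The set of 6 split the spring fish. C010R109 was at 0.51 and 0.67 in fish 2134 and 2133 but at -1.26 and -2.78 in fish 2248 and 2247, and the other members of the set except C024R022 divided the same fish in this way where they had a value. C042R155 was called lower in spring fish than in Salmon River smolts (-1.58 ± 0.58 SE, adjusted p in limma 0.0471), while the Chehalis smolts had a median of -0.29, near the spring median of -0.14. That call was lost in 8 of 14 alternatives (adjusted p in limma up to 0.172). The others had differences of -0.74 to -1.31 and were not called. By medians, the spring fish were nearer to summer 2009 than to summer 2008 for 88 of 150 members, for 42 of 80 in the largest set and for 6 of 6 in the set of 6. In position over all members, with the side of 2009 positive, they lay at -0.43, -0.13, -0.01 and 0.01.

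The 2 winter fish of 2009 were described only, since they share neither area nor stock with the fall fish used. Their mean was nearer to fall 2009 than to fall 2008 for 30 of 148 members with a value. For the set of 6 this held for 6 of 6, with C010R109 at 1.54 and 2.25. In the set of 80 it held for 2 of 80, with C182R066 at 1.91 and 2.37 and C118R004 at 1.68 and 1.75.

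Fall and summer fish were compared with year and origin as terms. The arrays are those whose values chose the members, among them the low values of the set of 6 in summer 2008, so the counts and differences are a description. Of 150 members, 11 were called, 6 higher and 5 lower in fall. Over all 23565 probes limma called 2.11%, 0.997% higher and 1.12% lower. The 6 higher ones were the set of 6, by 1.10 to 2.17. The difference was 2.17 ± 0.45 (SE) for C010R109 and 1.36 ± 0.33 (SE) for C042R155. The calls of C209R121, C114R015 and C131R170 were lost with all arrays and with quantile normalization. C101R031 was lower in fall by the largest amount, -3.67 ± 0.63 (SE), followed by C148R013 at -3.32 ± 0.62 (SE). C101R031 had medians of -0.07 in summer 2008, -1.30 in summer 2009, -5.30 in fall 2008 and -6.12 in fall 2009, but its lowest summer fish, at -6.34 and -5.86, reached the fall medians.

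Origin, sex, stock and body size gave no called member at sea. For origin, limma called 0 of 150 members (background 0%), with 1 member and 443 of 23429 probes at an unadjusted p below 0.05. For sex it called 0 (background 0%), with 11 members and 1015 of 23901 probes below 0.05 unadjusted. For stock within fall 2008 it called 0 (background 0%), with 9 members and 1313 of 23232 probes below 0.05 unadjusted. For fork length it called 0 (background 0%), with 24 members and 1682 of 22500 probes below 0.05 unadjusted. All 4 counts were also 0 in each of the alternatives run. The set of 6 was lower in males than in females by 0.64 to 1.19, each at an adjusted p in limma of 0.999. These counts do not show that the members were alike between the groups. The sign was that of the ocean difference for 66.0% of members for hatchery minus wild, against 64.2% of other probes with the same sign in both seasons. For male minus female it was 15.3% against 30.9%. For Chilliwack_R minus Fraser in fall 2008 it was 78.7% against 69.2%, and for the slope on fork length 86.7% against 74.3%. The arrays are among those that chose the members, so these shares are a description.

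On the array the members were not spread evenly. Rows 1 to 42 held 36.0% of the members and 24.3% of the 12582 probes with the same sign. Few members were neighbours, with 5 that had another member within 1 row and 1 column and 15 within 2. Whether position on the array bears on the year difference was not tested further. With the position of an array on its slide as a factor, the median year difference was 0.94, on the arrays that chose the members.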

How the data were processed

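The authors deposited 1 log ratio per spot and array, already centred (array medians -0.151 to 0.167). These values were taken as log2, since neither the log base nor the direction is stated per the labels or file headers. How the arrays were scanned, corrected and normalized, and when a value was left empty, is not given in the sources used here. Per the labels' protocols RNA was extracted with MagMAX-96 kits, amplified and labelled with Alexa dyes.

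Control spots (60) were left out and no empty value was filled. Contrasts were fitted per probe on the whole table (R 4.3.3, limma 3.58.1, two-sided moderated tests from lmFit and eBayes) with Benjamini-Hochberg adjustment over all probes tested. Probes with values in under 50% of a group, or in fewer than 2 of its fish, were left out, and the threshold for a call was an adjusted p of 0.05. The fits were checked on simulated data. Tables were made with Python 3.11.15, pandas 2.3.3, NumPy 2.4.6 and SciPy 1.17.1, and plots with matplotlib 3.10.9.

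The members and lists were chosen with earlier results of these data known. Named are the 8 best-ranked members in each direction, the members at the edge of the list and the 2 called members with the smallest adjusted p per direction and comparison. Of the 8 higher in 2009, C021R146 and C116R159 (ranks 24 and 29) are named only here, with smaller differences of 1.06 and 1.02. C042R155, C024R022 and further members of the sets were named after their values were seen. The authors' series table, which lacks 17574 values, served as an alternative. The number of arrays limits the precision.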

Additional observations from a re-analysis of the deposited data

Results flagged for a closer look

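Among 127 groups of 4 to 10 values of single members, 7 had a lowest or highest fish set well apart, which chance alone does in about 1 in 20. In summer 2008, C014R013 was at -0.93 in fish 552, against 0.68 to 1.56 in the others, and C072R024 was at -2.31 in fish 576, against -0.08 to 0.52. In summer 2009, C236R065 was at -1.35 in fish 2786, against -0.00 to 1.36. On the wide arrays of that summer, fish 2857 was at -4.27 for C087R048 (others -2.55 to -1.95) and at -2.93 for C014R013 (others -1.18 to -0.82), and fish 2794 was at 0.74 for C072R024 (others -0.63 to -0.43). Among the Salmon River smolts, C010R109 was at -0.19 in fish 1441, against 0.58 to 0.72. For the median over members, 0 of 8 groups held such a fish.

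The river difference of smolts differed between wild and hatchery fish, by the origin by year term in limma, at 10 members. Wild minus hatchery, it was 3.42 for C209R121, 2.46 for C114R015, 3.61 for C010R109, 3.77 for C131R170 and 4.40 for C042R155. It was -3.45 for C244R016, -2.79 for C134R140, -3.28 for C030R018, -4.00 for C104R040 and -3.27 for C140R143. The 2 origins came from different rivers in 2009, so origin and river cannot be told apart.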

How the results depend on the processing

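The list itself depended most on the choices. Of the 150 members, 87 were chosen again with an array SD limit of 1.5, 32 with all arrays, 60 with means in place of medians, 93 with Fraser fish only and 24 with mid_SoG and south_SoG only. Leaving out each summer fish of 2008 in turn gave 98 to 118, with the lowest without fish 576 (98) and fish 502 (99). The median year difference reversed, to -0.41, in the fall fish of south_SoG alone. There it also reversed for C109R104 (-0.42), C024R022 (-0.66), C087R048 (1.57), C182R066 (1.91), C003R122 (0.91), C014R013 (0.054), C139R054 (0.81), C118R004 (1.35) and C096R008 (0.60). Restricting probes to those measured on all arrays of a comparison let fewer probes enter. It gave 25 called members in smolts by year, 43 in wild smolts and 43 in spring fish. Members against all probes, the shares were 28.1% against 18.6%, 40.2% against 19.1% and 48.3% against 25.6%. With all arrays, the members' share called fell below that of all probes in smolts by year (33.6% against 38.1%) and in hatchery smolts (23 calls, 19.5% against 32.3%). In hatchery smolts slide position gave 2 calls (1.48% of members against 0.723% of all probes). There C209R121, C114R015 and C131R170 turned to -0.057, -0.090 and -0.053. A random slide block could not be fitted in hatchery smolts. With all arrays, 7 members were called between fall and summer (4.67% against 1.45% of all probes). Leaving out single fish gave 6 to 10 calls in hatchery smolts. Members against all probes, this was 4.88% against 0.39% without smolt 36, 8.2% against 0.673% without 1 and 5.97% against 1.54% without 6. Wild smolts gave 43 to 63 calls (29.3% against 11.8% without 94, 42.3% against 15% without 96). Spring fish gave 67 to 79 (46.2% against 20.5% without 2247, 54.5% against 28.1% without 2133). The origin by year term gave 6 to 11 (4.55% against 0.587% without 1435 and against 0.497% without 1439, 8.94% against 2.4% without 36). Of 123 alternative values of main results, 106 stayed near the main value, 16 moved further and 1 reversed. A count of called members stayed near if it was within a factor of 1.5 of the main count. The 106 include the comparisons at sea in which no member was called in any setting. Of 892 values of single probes, 818 kept their sign and, where tested, their call. Another 56 lost the call, 6 gained one and 12 reversed in sign. The causes were not tested beyond what is stated. No paired analysis by replicate number was possible because the groups compared share no fish numbers; slides shared by fish of both years gave the slide block and the within-slide differences.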
